A study of Rattus norvegicus with 72 samples.

Results

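Cortex of 9-day-old rat pups labelled as female and as carrying a maternally derived UBE3A deletion was compared with cortex of wild-type (WT) controls, also labelled female, from the same kind of litter. Libraries were chosen by their labels for tissue, parent of origin, age and genotype, which gave 6 RNA libraries (3 deletion, 3 WT) of 72 libraries in the series, 48 of them RNA. The series covers hypothalamus and cortex on postnatal day 2 (P2) and 9 (P9), with the deletion inherited from the mother or from the father, and its design text calls the controls litter-matched. By their labels, deletion pups lack the gene copy inherited from the mother and keep the paternal copy, and WT pups labelled maternal carry no deletion. No source used here gives the strain, the extent of the deletion or the litter of each pup. No label says that replicates came from separate litters, so p-values measure only the spread between these libraries.

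Ube3a encodes an E3 ubiquitin ligase, an enzyme that tags proteins for degradation. In mature neurons it is read mainly from the maternal chromosome, because a long antisense transcript silences the paternal copy, while glia use both copies. Loss of the maternal copy causes Angelman syndrome in people, and rodents with that deletion are its usual model.

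Counts are given per RefSeq accession. The deposited tables give accessions without gene symbols, and 0 of the 184444 accessions in the cortex table were found in a rat RefSeq table (assembly GRCr8). Row NM_173010 was taken as the mouse record of Ube3a. All other accessions stand without a name, and a pair in each direction is printed. For the same reason 24 lists of genes (the Ube3a domain, synapse, Wnt signalling, cell type markers and others) found 0 counted accessions. Neither the cortical identity of the tissue nor its mix of cells could therefore be checked by markers. In such bulk tissue, fewer cells of a type and less RNA per cell cannot be told apart.

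Totals of the 6 libraries ran from 1943980 to 2498255 counts. They did not differ between genotypes beyond the spread between libraries (exact permutation test, two-sided p = 0.8, where 0.1 is the smallest p that 3 against 3 allows). With earlier results of these data known, 1 of the 6 libraries, labelled WT replicate 3, was doubted for its values in single rows. Over 5616 accessions with a mean of at least 10 CPM it was not extreme. In 10 it lay over 2-fold below all other 5 libraries and in 4 over 2-fold above. WT replicate 2 had 11 and 4, WT replicate 1 had 7 and 0, and the deletion libraries had 4 to 8 below and 0 to 3 above. The library labelled WT replicate 3 had the Ube3a level of the deletion libraries, and it also differed from the other 5 at NR_001463, a noncoding RNA singled out after its values were seen. NR_001463 had 2 counts (1.05 CPM) in the library labelled WT replicate 3 and between 2631 and 4524 CPM in the other 5. No source used here names NR_001463. Whether it is an RNA made in a single sex was not established, and if it is, the library labelled WT replicate 3 may come from a male or a swapped pup. Its sex and identity are therefore in doubt beside its genotype, and a comparison that includes it may mix sexes. The part of sex in the results was not tested. The calls for the deletion at P9 and for its age dependence are therefore given with and without that library. The accessions said to have fallen or risen come from the fit without it.

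The Ube3a row was high in a pair of the WT-labelled libraries and low in the other 4 libraries. Levels are given as CPM, counts scaled to library sizes adjusted by edgeR's TMM method. WT replicates 1, 2 and 3 had 27.5, 37.2 and 6.29 CPM of NM_173010, from 51, 66 and 12 counts. Deletion replicates 1, 2 and 3 had 11.2, 7.87 and 9.48 CPM, from 21, 14 and 22 counts. The exact 95% Poisson interval of the library labelled WT replicate 3, 3.25 to 10.99 CPM, overlapped those of all 3 deletion libraries and of neither other WT library. These intervals cover counting error only. The 3 labelled WT averaged 23.7 ± 15.8 CPM, the 3 deletion libraries 9.51 ± 1.67 CPM (SD, n = 3 per group; exact permutation p = 0.4, two-sided).

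**Figure D1:**
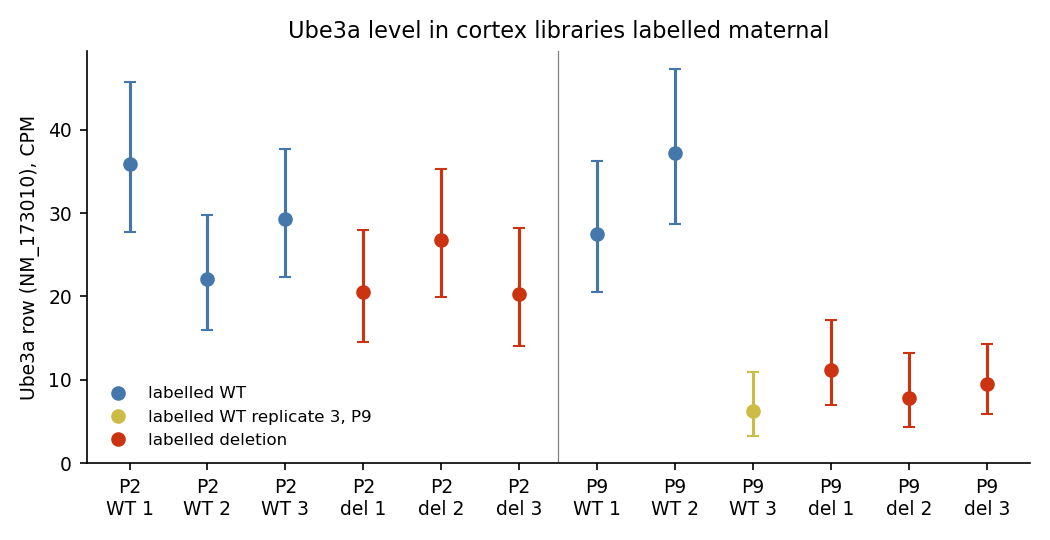
Level of the Ube3a row NM_173010 in CPM (vertical axis) in each of the 12 cortex libraries labelled maternal (horizontal axis, by age, genotype label and replicate), with exact 95% Poisson intervals. At P9 the library labelled WT replicate 3 (6.29 CPM) lies with the deletion libraries (7.87 to 11.2 CPM), and at P2 the genotypes overlap.

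Differences were tested across all accessions with edgeR's quasi-likelihood F-test, and p-values were adjusted by the method of Benjamini and Hochberg (edgeR F-test, BH). With all 6 libraries the log2 fold change of Ube3a, deletion over WT, was -1.29 (SE 0.727, 95% interval -2.83 to 0.24, adjusted p = 0.617, edgeR F-test, BH). Without the library labelled WT replicate 3 the fitted log2 fold change was -1.75, a 3.37-fold lower level. That library was set aside for its Ube3a level, so this value is a description without a test. At P2 the row did not separate the labels: its levels were 35.9, 22.1 and 29.3 CPM under the WT label and 20.5, 26.8 and 20.3 CPM under the deletion label. The groups overlapped at P2, and the log2 fold change there was -0.36 (95% interval -1.70 to 0.97, adjusted p = 0.9995, edgeR F-test, BH). In hypothalamus labelled maternal at P9 the genotypes also overlapped, with means of 41.7 ± 10.95 CPM (WT) and 38.5 ± 14.2 CPM (deletion; SD, n = 3 per group; exact permutation p = 0.8, two-sided). NM_173010 is thus low in 4 of the 12 cortex libraries labelled maternal, all of them at P9. In cortex labelled paternal, over both ages, it ran from 11.95 to 88.8 CPM under the WT label and from 12.2 to 45.3 CPM under the deletion label. In hypothalamus labelled paternal, over both ages, the genotype labels did not overlap. The row ran there from 37.0 to 56.3 CPM under the WT label and from 2.61 to 9.07 CPM under the deletion label. No source used here says which part of the gene the row's counts come from or whether the counting kept the antisense strand apart, so the row is no full check of the genotype labels.

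With all 6 libraries, no accession passed an adjusted p of 0.05 for the deletion at P9 (0 of 8380, a share of 0%, edgeR F-test, BH). The lowest adjusted p of that edgeR F-test was 0.0593. At unadjusted p under 0.05 there were 784 accessions (9.36%), of which 627 were lower (7.48%) and 157 higher (1.87%) with the deletion. DESeq2's Wald test called 11, all lower, and edgeR with no filter on low counts called 56, of which 53 were lower.

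Without the library labelled WT replicate 3, 309 accessions fell and 12 rose with the deletion, among 8090 tested (3.82% and 0.148%) in the same edgeR test. Leaving out any other single library of the 6 gave 0 calls. The 309 and 12 rest on a pair of WT libraries and on 1 of them most. With WT replicate 2 left out as well, so that a single WT library remained and was taken to vary like the other groups, 2 accessions were called. With WT replicate 1 left out instead, 226 were called. Leaving out a deletion library as well left 129 to 229 calls, with 129 in the fit without deletion replicate 3. DESeq2 called 245 (17 rose and 228 fell) in the fit without the library labelled WT replicate 3.

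**Figure D2:**
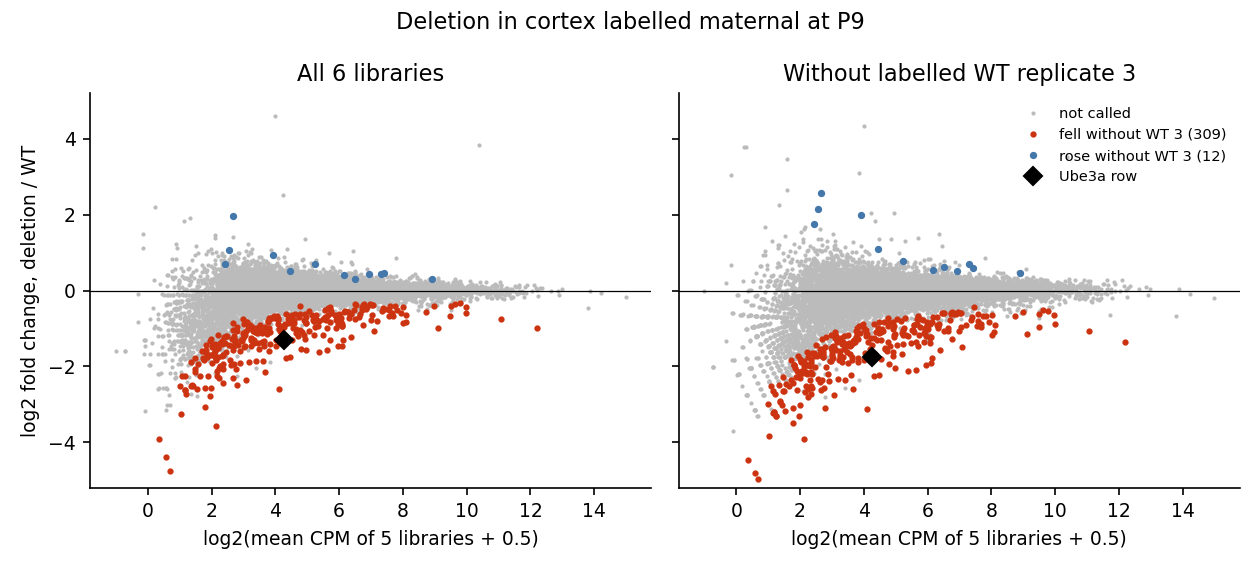
Log2 fold change of deletion over WT at P9 (vertical axis) against log2 of the mean CPM plus 0.5 over the 5 libraries other than the one labelled WT replicate 3 (horizontal axis), 1 point per accession. In the right panel 309 accessions fell (red) and 12 rose (blue), the left panel shows those of them that were tested with all 6 libraries, none of which passed the threshold, and the diamond is the Ube3a row.

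The accessions that fell did so by a median log2 fold change of -1.44 (range -4.96 to -0.42), against -0.04 over all accessions tested. Of the 309, 234 fell to at most 1/2 of the WT level on the fitted scale and 74 to at most 1/4. The 12 that rose had log2 fold changes from 0.46 to 2.59, with a median of 0.73. Ube3a, at -1.75, was not among the 309 called, though its value lay within their range. Of the 309, 106 had a lower log2 fold change, and so had 250 of all 8090 tested. The list that fell held accessions of low and high levels, with a median of 13.7 CPM over the 5 libraries used (23.1 CPM over all tested) and a highest mean of 4721 CPM.

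Noncoding RNAs made up 32.4% of the accessions that fell, 100 of 309, and 10.2% of all tested. Of the noncoding (NR_) accessions tested, 12.1% fell (100 of 825), and their median log2 fold change was -0.44 (-0.30 with all 6 libraries). Of the mRNA (NM_) accessions, 2.88% fell (209 of 7265), with a median of -0.01. In the libraries themselves, noncoding accessions took 5.42% and 5.79% of counts in WT replicates 1 and 2, 4.501% in the library labelled WT replicate 3 and 4.63%, 5.28% and 4.69% in the deletion libraries. Both WT libraries thus lay above the other 4. With NR_ accessions left out of scaling and tests altogether, 205 mRNA accessions were called, 198 of them lower.

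WT replicates 1 and 2 also held more different accessions at like depth. Counts were found for 19813 and 19937 accessions in these libraries, for 17684 in the library labelled WT replicate 3 and for 17893, 17398 and 18735 in deletion replicates 1, 2 and 3. Deletion replicate 3, the highest of the last 4, also had the most counts. With all 6 libraries the genotypes overlapped (19145 ± 1266 in WT and 18009 ± 676 in deletion, SD, n = 3 each; exact permutation p = 0.3, two-sided). Neither these numbers nor the share of noncoding RNA was tested for its part in the fall.

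Among single accessions, NM_152806 had the smallest p among those that fell. Its counts nearly equal those of another tested accession, so the pair may stand for the same transcript. Its levels were 281 and 298 CPM in WT replicates 1 and 2, 138 CPM in the library labelled WT replicate 3, and 161, 143 and 144 CPM in the deletion libraries. The library labelled WT replicate 3 lay below the deletion libraries, and the other WT libraries well above them. Without it the log2 fold change of NM_152806 was -0.96 (SE 0.136, adjusted p = 0.000499, edgeR F-test, BH), and with it -0.68 (adjusted p = 0.280). At P2 NM_152806 ran from 275 to 385 CPM in the 6 libraries, a range that holds both high WT libraries of P9.

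NR_028380, a noncoding RNA, showed the same order. It had 79.4 and 77.7 CPM in WT replicates 1 and 2, 27.3 CPM in the library labelled WT replicate 3 and 35.7, 34.3 and 34.0 CPM in the deletion libraries. Without the doubted library its log2 fold change was -1.18 (SE 0.183, adjusted p = 0.000829, edgeR F-test, BH), and with it -0.82 (adjusted p = 0.337). P2 libraries had 63.1 to 93.6 CPM of NR_028380.

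NM_173757 and NR_029460 had the smallest p among those that rose. NM_173757 had 70.2 and 65.9 CPM in WT replicates 1 and 2, 121 CPM in the library labelled WT replicate 3 and 104, 101 and 112 CPM in the deletion libraries. NR_029460 had 128 and 101 CPM in WT replicates 1 and 2, 179 CPM in the library labelled WT replicate 3 and 177, 184 and 196 CPM in the deletion libraries. In both, the library labelled WT replicate 3 lay at or above the deletion libraries' lowest level. Without it their log2 fold changes were 0.64 (SE 0.147) for NM_173757 and 0.70 (SE 0.161) for NR_029460, each with an adjusted p of 0.0103 (edgeR F-test, BH). With all 6 libraries they were 0.30 and 0.45, with adjusted p of 0.584 and 0.353 in the same edgeR test. Both lost their call when either WT replicate 2 or deletion replicate 3 was left out as well (adjusted p up to 0.234 and 0.353).

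The library labelled WT replicate 3 was not in the fit that called the 321 accessions, but it was set aside for its low Ube3a level. With it in the fit no accession passed the threshold, so its distance from the other WT libraries is partly built into this list. Its levels are given as a description. It lay below both other WT libraries in 308 of the 309 accessions that fell, and above both in 12 of the 12 that rose. Over all 8090 tested it lay below both in 42.1% and above both in 31.8%. On the scale of log2(CPM + 0.5), it was nearer to the mean of the deletion libraries than to that of the other WT libraries in 284 of 309 (91.9%) and in 11 of 12, against 63.7% of all tested. In the accessions that fell it differed from the deletion mean by a median of -0.06 and from the other WT libraries by -1.39. Accessions called from a high pair of WT libraries favour such counts, since part of that height can be chance, so no test is attached to them. Nearer does not mean equal: the library labelled WT replicate 3 lay within the range of the deletion libraries in 137 of the 309 (44.3%, against 51.8% of all tested). It lay below the lowest deletion library in 103 of the 309 (33.3%, against 25.5% of all tested).

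**Figure D3:**
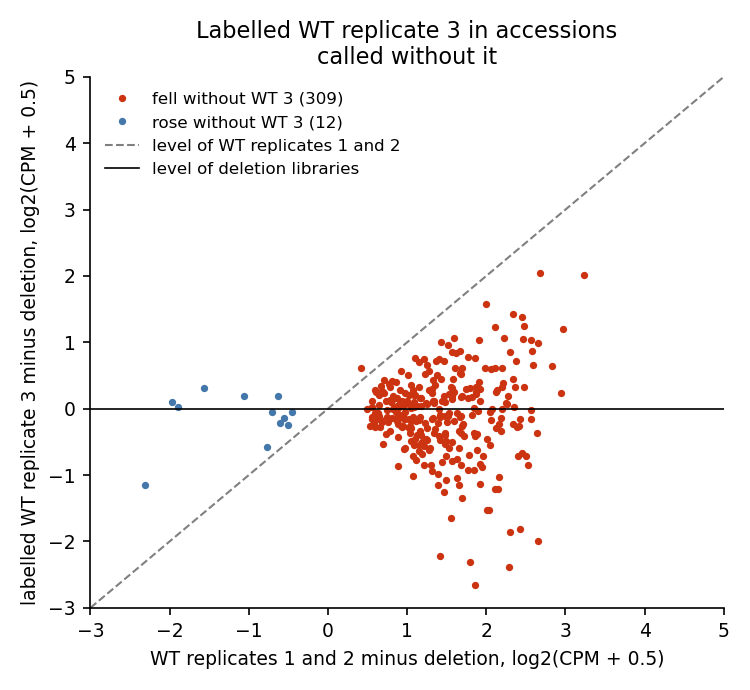
For each accession called without it, the level of the library labelled WT replicate 3 minus the mean of the 3 deletion libraries (vertical axis) against the mean of WT replicates 1 and 2 minus that of the deletion libraries (horizontal axis), both as log2(CPM + 0.5). The solid line is the deletion level and the dashed line the level of the other WT libraries. The library labelled WT replicate 3 was nearer to the deletion level in 284 of the 309 accessions that fell and 11 of the 12 that rose.

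Correlations over all tested accessions gave the same order. Pearson's r of log2(CPM + 0.5) was 0.9745 between WT replicates 1 and 2 and 0.974 to 0.976 between deletion libraries. The library labelled WT replicate 3 had r of 0.974 to 0.976 with the deletion libraries and of 0.951 and 0.963 with the other WT libraries. WT replicates 1 and 2 had r of 0.951 to 0.968 with the deletion libraries. These correlations are across 8090 accessions, which are not independent, and are given as a description.

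Set against P2, the accessions that fell were lower in 4 of the 6 P9 libraries. The lists were called on the gap between WT replicates 1 and 2 and the deletion libraries at P9. That gap is therefore built into the levels below, and the place of the library labelled WT replicate 3 is partly built in. They are given as a description. Relative to the mean of the 6 P2 libraries of cortex labelled maternal, their median log2 level was -0.01 and 0.30 in WT replicates 1 and 2 at P9, -1.32 in the library labelled WT replicate 3, and -1.26, -1.20 and -1.41 in the deletion libraries. Medians over all tested accessions lay between -0.06 and 0.03 in these 6 libraries. The accessions that rose had the opposite order: they lay below P2 in WT replicates 1 and 2 (-0.78 and -0.75), and near P2 in the library labelled WT replicate 3 (0.13) and in the deletion libraries (0.15 to 0.18). As a share of all counts, the 309 took 2.83% and 3.46% in WT replicates 1 and 2, 1.48% in the library labelled WT replicate 3, 1.496% to 1.74% in deletion libraries and 2.59% to 3.21% at P2. In cortex labelled paternal their share was higher, at 3.46% to 4.97% at P2 and 4.76% to 6.72% at P9. The genotype labels overlapped there at both ages.

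**Figure D4:**
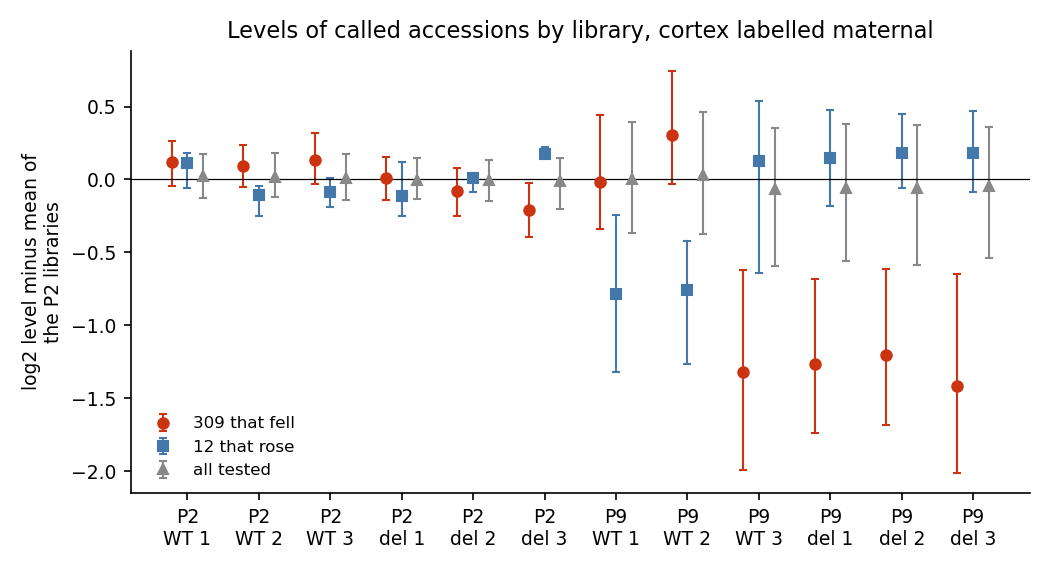
Median log2(CPM + 0.5) level of the accessions that fell (red), rose (blue) or were tested (grey), minus the mean of the 6 P2 libraries (vertical axis), in the 12 cortex libraries labelled maternal (horizontal axis); bars are the middle 50% of accessions. The accessions that fell have medians of -1.20 to -1.41 in the deletion libraries and the library labelled WT replicate 3 at P9 and of -0.01 and 0.30 in the other WT libraries.

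At P2, where other pups were sampled, the accessions that fell at P9 had small differences in the same direction. Of the 306 tested with all libraries, 244 (79.7%) had a lower fitted level with the deletion at P2, against 54.7% of all tested, and their median log2 fold change was -0.22 against -0.02. No accession passed the threshold at P2 (0 of 8380, edgeR F-test, BH), and 11 of the 306 were lower at unadjusted p under 0.05 (3.59%, against 1.80% of all tested). Medians of the 309 ran from -0.21 to 0.01 in the 3 deletion libraries and from 0.09 to 0.13 in the 3 WT libraries at P2, so the labelled genotypes did not overlap in this summary. Medians over all tested accessions did not overlap at P2 either, though they lay closer together. They ran from -0.009 to -0.002 in the deletion libraries and from 0.007 to 0.023 in the WT libraries. The share of noncoding accessions did not overlap at P2 either, at 6.09% to 6.49% of counts in deletion and 6.58% to 6.81% in WT libraries (exact permutation p = 0.1, two-sided, the smallest possible), and its part in these differences was not tested.

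The difference between the ages was tested directly, as the P9 effect of the deletion less its P2 effect. Without the library labelled WT replicate 3 at P9, 0 of 8090 passed the threshold (0%, lowest adjusted p = 0.0890, edgeR F-test, BH), with 700 (8.65%) at unadjusted p under 0.05. This count depended on the fit: DESeq2 called 18, and edgeR on the 12 libraries labelled maternal, less the doubted one, called 62, of which 61 had the lower value at P9. With all libraries edgeR called 0 of 8380 and DESeq2 called 0, with 350 at unadjusted p under 0.05 in edgeR.

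In hypothalamus labelled maternal at P9 the accessions that fell in cortex had differences centred near 0. Of the 309, 246 were tested there, 96 of them (39.0%) had a lower level with the deletion, and their median log2 fold change was 0.07, against 50.4% and -0.003 over all accessions tested in both tissues. None of the 246 passed the threshold (adjusted p of 1 for each, edgeR F-test, BH). At unadjusted p under 0.05, 3 were lower (1.22%, against 1.71% of accessions tested in both tissues) and 6 higher. WT replicate 3 of this hypothalamus group had 9 counts of NR_001463, so its sex and identity are in doubt too. It was kept, and no fit without it was made. Hypothalamus libraries labelled maternal at P9 held only 218288 to 531265 counts each, and their fit had a biological coefficient of variation of 22.3%, against 13.3% in cortex, so a difference of a given size was less detectable there.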

How the data were processed

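RNA was sequenced after rRNA depletion with a directional kit, per the labels' protocols. The submitters' processing notes name STAR and the builds rn6 and Rnor_6.0. How reads were assigned to accessions (program, annotation, strand) is not given in the sources used. The authors deposited raw whole-number counts per accession (168377 NM_ and 16067 NR_ rows); no column was left unmapped (0). Replicate numbers were assigned in record order and pair nothing.

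All 24 cortex libraries (8 groups of 3) were fitted together in edgeR 4.0.16 (R 4.3.3): filterByExpr, TMM, 1 mean per group, robust quasi-likelihood F-tests, two-sided, Benjamini-Hochberg adjustment, threshold 0.05, with 16 residual degrees of freedom (15 without the library labelled WT replicate 3). Hypothalamus was fitted likewise. DESeq2 1.42.0 was the alternative tool. Permutation tests used scipy 1.17.1. Scripts were tested on simulated data. No replicates held identical counts. Several accessions can stand for 1 gene: 1011 of the 8090 tested differed from another by under 10% of counts. Named accessions were NM_173010 and, per direction, the 2 with the smallest p among those called without the doubted library, with groups not overlapping and a mean of at least 10 CPM. The libraries, lists and rules were chosen with earlier results of these data known. Bisulfite tables were not used here.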

Additional observations from a re-analysis of the deposited data

How the results depend on the processing

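With all 6 libraries, the count of accessions past the threshold (0) was 0 with RLE, upper-quartile or total-count scaling, with a filter of at least 10 CPM in 3 libraries, with the 12 libraries labelled maternal and with NM_ accessions only (an alternative added after seeing the data). It was 1 with only the libraries of the contrast, 4 with near-identical accessions merged, 11 with DESeq2 and 56 with no filter; the cause was not tested. Leaving out each library in turn gave 0 to 321. Ube3a was not called in any of these fits, including the one without the library labelled WT replicate 3. Its log2 fold change ran from -1.75 to -0.82 when a library was left out. The value of -1.75 is from the fit without the library labelled WT replicate 3 and is a description, given with no p-value. Without the library labelled WT replicate 3, the count (321) was 487 (68 rose and 419 fell) with the libraries labelled maternal alone, where fewer groups share the estimate of spread, 430 (77 and 353) with the libraries of the contrast alone, and 205 with NM_ accessions only, where fewer were tested. It ran from 2 to 229 with a further library left out. NM_152806 and NR_028380 kept their call in all 14 alternatives in which each was tested. NM_173757 lost it in 2 of 15 and NR_029460 in 2 of 14. The age dependence without that library (0 calls) was 8 with near-identical accessions merged, 18 with DESeq2, 41 with no filter and 62 with the libraries labelled maternal alone, and 0 to 1 with a further library left out. Without the library labelled WT replicate 3, the difference of deletion minus WT in accessions with counts went from -1136 to -1866 and that in the share of NR_ accessions from -0.374 to -0.742 percentage points, so both grew by over 1.5 times (exact permutation p = 0.2 for each, the smallest that 2 against 3 allows). The difference in total count went from 127079 to 153299. Gene lists gave no value, since no listed accession was counted. No paired analysis was possible because the labels give no replicate numbers. Counts of 12 to 66 for Ube3a limit the precision of its level in each library.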

Other observations

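NR_001463, at 2 counts in the cortex library labelled WT replicate 3 (maternal, P9), had under 20 counts in 4 of the 48 RNA libraries and 775 to 11758 counts in the other 44. The other 3 were a cortex library labelled paternal (P9, WT replicate 2, 17 counts), a hypothalamus library labelled maternal (P9, WT replicate 3, 9 counts) and a hypothalamus library labelled paternal (P2, WT replicate 3, 19 counts). All 4 are labelled WT and female. No source used here names NR_001463 or says whether it is an RNA made in a single sex, so the sex and identity of these 4 libraries are in doubt and were not tested. In the other 3, the Ube3a row stood at 56.7, 41.1 and 44.5 CPM, so a low NR_001463 went with a low Ube3a row in 1 of the 4 libraries.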
